A study of Mus musculus with 12 samples.

Results

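The genes described here are 10 cell adhesion genes from 3 families of the immunoglobulin superfamily, the IgLON genes Opcml, Ntm, Lsamp and Negr1, the Cadm genes Cadm1, Cadm2, Cadm3 and Cadm4, and the Ncam genes Ncam1 and Ncam2. They were chosen by gene symbol from a table of 23893 genes, and all 10 symbols were found. The choice was made with results of these libraries known, among them that several of the genes were lower after topotecan, so the counts of members below describe the families and are not independent evidence of a direction.

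Cultured mouse cortical neurons were sequenced by RNA-seq in 4 groups of 3 libraries, 12 in all, to compare deletion of Top1 with inhibition of its product by topotecan. Top1 encodes topoisomerase 1, which relaxes supercoiled DNA by cutting and rejoining a strand, and topotecan holds the enzyme on the DNA that it has cut. Per the methods of the study, all 4 groups came from Top1fl/fl cultures that were infected at day in vitro (DIV) 3 with a lentivirus driven by the CaMKIIα promoter. The virus of the groups labelled wild type (WT) carried tdTomato, and that of the Top1 cKO groups also carried CRE, the recombinase that removes the floxed part of Top1. At DIV 15 the cells received 300 nM topotecan (WT-Topot, Top1 cKO-Topot) or the vehicle, 0.003% DMSO (WT-Veh, Top1 cKO-Veh), for 3 days. The WT groups are therefore floxed cells without CRE, and cells that the virus did not reach or in which its promoter was silent kept Top1 in the Top1 cKO groups.

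IgLON proteins are small adhesion molecules held on the outer face of the neuronal membrane by a lipid anchor, and they bind each other in pairs across and along membranes to shape axon growth and synapse number. CADM proteins, also called SynCAMs or nectin-like molecules, cross the membrane, bind one another between facing cells and recruit scaffold proteins of the synapse through a short cytoplasmic tail. NCAM proteins carry immunoglobulin and fibronectin domains, and NCAM1 is the main carrier of polysialic acid in the brain, a sugar chain that loosens adhesion while neurites grow.

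The 4 IgLON and 4 Cadm members differ little in coding length and more in genomic span. The coding sequence of the 4 IgLON members is 1023 to 1044 bases long, and they span 648.8 to 1134.6 kb in the GENCODE vM1 annotation of NCBIM37, the assembly that mm9 names. Opcml lies at chr9:27598360-28732995 on the plus strand and Ntm at chr9:28802335-29770726 on the minus strand, so the 2 genes are neighbours 69.3 kb apart that run toward each other. Lsamp lies at chr16:41532971-42181792 and Negr1 at chr3:156224758-156979409, both on the plus strand. The Cadm genes have 1164 to 1422 coding bases and differ most in span. Cadm2 covers 965.5 kb (chr16:66655666-67621153, minus strand) and Cadm1 327.5 kb (chr9:47338256-47665720, plus strand). Cadm3 covers only 33.4 kb (chr1:175264385-175297826, minus strand) and Cadm4 22.5 kb (chr7:25267042-25289558, plus strand). A further IgLON gene, Iglon5, spans 17.2 kb and is not among the 10. Ncam1 has 3318 coding bases and Ncam2 2511. Ncam1 covers 296.8 kb (chr9:49310257-49607027, minus strand) and Ncam2 423.6 kb (chr16:81200942-81624530, plus strand). In 9 of the 10 genes the first intron of the transcript with the longest coding sequence was the longest one, up to 737.3 kb in Cadm2. In Ncam1 that transcript had its longest intron, 19.4 kb, at position 12. Among the merged exons of Ncam1 the first ended 0.245 kb from the gene start and the next began at 228.982 kb. The exception of Ncam1 thus holds for the chosen transcript and not for the merged exons. Merged exons made up 0.834 to 18.7% of the spans.

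**Figure D1:**
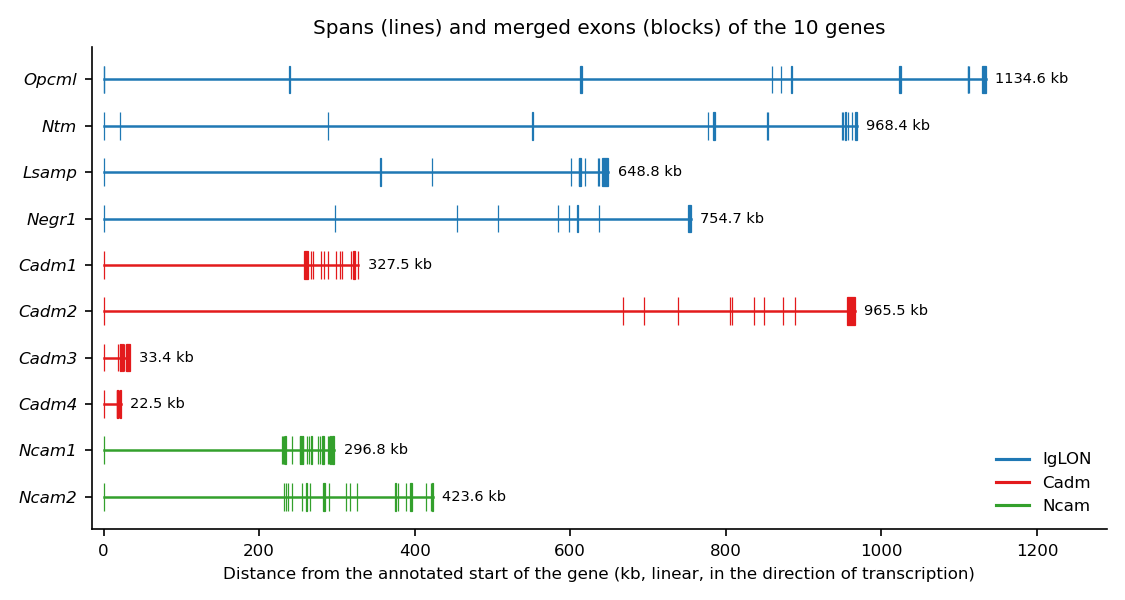
Map of the 10 genes drawn to scale, with the distance from the annotated start in kb on the x axis and 1 gene per line. Lines are gene spans and blocks merged exons, drawn with a thin outline so that short exons can be seen. Cadm2 spans 965.5 kb and Cadm4, of the same family, 22.5 kb.

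Promoter windows from RefSeq (250 bases before to 50 after a transcript start, taken from its GRCm38 table) were given for 8 of the 10 genes, and each was found once on NCBIM37 by exact match. The parts from 100 bases before to 50 after the start are shown for 5 genes because they pair the member most lowered by topotecan, Cadm2, with Cadm3 and Cadm4 of the same family, which did not pass the test, and because Negr1 and Opcml stood furthest apart within the IgLON family after Top1 deletion, at 75.3% and 39.4% of WT-Veh. They are written 5′ to 3′ with each CG dinucleotide in capitals.
Cadm2 (chr16:67621104-67621253, minus strand): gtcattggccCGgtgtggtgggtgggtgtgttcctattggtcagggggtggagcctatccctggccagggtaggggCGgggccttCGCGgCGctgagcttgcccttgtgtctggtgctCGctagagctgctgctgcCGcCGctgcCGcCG
Cadm3 (chr1:175297777-175297926, minus strand): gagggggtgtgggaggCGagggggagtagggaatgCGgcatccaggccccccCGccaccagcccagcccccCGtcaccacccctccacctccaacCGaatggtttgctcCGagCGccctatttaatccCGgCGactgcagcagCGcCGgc
Cadm4 (chr7:25266942-25267091, plus strand): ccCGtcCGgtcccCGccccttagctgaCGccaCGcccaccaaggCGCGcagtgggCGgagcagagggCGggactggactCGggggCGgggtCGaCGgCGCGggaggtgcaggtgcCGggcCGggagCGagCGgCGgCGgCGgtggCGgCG
Negr1 (chr3:156224658-156224807, plus strand): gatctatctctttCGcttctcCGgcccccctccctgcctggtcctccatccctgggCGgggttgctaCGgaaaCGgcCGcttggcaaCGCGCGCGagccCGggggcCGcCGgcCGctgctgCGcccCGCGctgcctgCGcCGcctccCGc
Opcml (chr9:27598784-27598933, plus strand): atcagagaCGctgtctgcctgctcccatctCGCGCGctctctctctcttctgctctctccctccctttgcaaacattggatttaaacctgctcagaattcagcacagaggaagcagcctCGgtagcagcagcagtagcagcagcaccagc
Over the whole 300 bases the CG count was 15 in Cadm2, 17 in Cadm3, 40 in Cadm4, 29 in Negr1, 9 in Opcml and 41 in Ncam2, against a median of 7 over 32851 windows of the same length. The window of the most lowered gene and those of the genes that did not pass the test thus all held more CG than the median. Lsamp and Ntm, which were also lowered, each had 1 window above the median (12 and 19 CG) and 1 below it (3 and 2). None of the windows held TATAAA on either strand, which 13.6% of all windows held, and none held TGACGTCA (1.79% of windows) or GCGCATGC (2.71%). GGGCGG, present in 35.7% of windows, occurred in Cadm2, Cadm4, Negr1, Ncam2 and 1 of 2 Ntm windows, and CCAAT, present in 37.4%, in Cadm2, Opcml, the other Ntm window and 1 of 2 Lsamp windows. Of the 2 Lsamp windows, 1 lay 1548.49 kb before the start of the GENCODE gene, so the span used here for Lsamp may be too short, and both Ntm windows lay inside the GENCODE span of Ntm. The Ntm window nearer the annotated start held 2 CG and the other 19.

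The libraries held 1730164 to 4583777 counts. Top1 itself was at 117.0 to 163.5 CPM (counts per 1e6 reads, scaled by the TMM method) in the 6 libraries without CRE and at 27.1 to 44.0 CPM in the 6 with CRE, so the targeted gene followed the genotype labels and was still counted after deletion (33.7 ± 9.01 CPM in Top1 cKO-Veh against 134.8 ± 25.1 in WT-Veh). The 5 markers of neurons summed to 3203.7 to 5434.8 CPM per library, those of microglia to 6.0 CPM at most, and those of endothelial and mural cells to 44.6 CPM at most, with Cldn5 listed at 0 in 3 groups. By group the neuron markers summed to 3594.9 to 5192.6 CPM in WT-Veh and, overlapping, to 3203.7 to 3890.6 in WT-Topot, with 1 called lower. With the replicate block 3 were called lower there and 1 higher. They summed to 4117.5 to 5434.8 CPM after deletion. After deletion and drug they summed to 4110.2 to 5274.7 CPM, with 2 called higher than in WT-Topot (1.46% of all genes). The 7 astrocyte markers were present in every group and summed to 1266.5 to 3275.7 CPM in WT-Veh and 618.0 to 1298.2 in WT-Topot, and to 1304.7 to 3682.2 CPM after deletion and 624.3 to 1719.9 after deletion and drug. Of those 7, 2 passed the test as lower in WT-Topot, and 4 with the replicate block. The block also called 4 of the 7 lower with topotecan after deletion (1.74% of all genes), where none was called without it. The 6 markers of excitatory projection neurons summed to 1434.6 to 1574.8 CPM in WT-Veh and 1787.5 to 2105.8 in WT-Topot, and the 6 of proliferating progenitors to 88.7 to 144.2 and 165.2 to 217.8 CPM, with 1 of each list called higher. With the replicate block 3 excitatory markers and 1 progenitor marker were called higher. The excitatory markers summed to 1325.7 to 1446.5 CPM after deletion and 1238.5 to 1286.2 after deletion and drug. The 6 interneuron markers summed to 715.4 to 1557.3 CPM in WT-Veh and, overlapping, to 520.8 to 823.1 in WT-Topot. None was called by edgeR's quasi-likelihood test and 4 had an unadjusted p under 0.05, where the share of all genes was not counted. With the replicate block 2 of the 6 were called lower and 2 higher. The 8 oligodendrocyte lineage markers summed to 98.5 to 155.2 CPM in WT-Veh and, overlapping, to 128.5 to 152.0 in WT-Topot, with none called. With the block 1 of the 8 was called lower and 1 higher. Of all genes, 2.04% were called lower and 0.682% higher in WT-Topot, and 5.0% and 3.24% with the replicate block. The part of these shifts in the results below was not tested.

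In WT-Veh cultures the 2 shortest genes had the highest levels per kilobase of exon and Lsamp the lowest. On the scale of CPM per kilobase of merged exon (RPKM, mean ± SD of 3 libraries), Cadm4 (105.3 ± 11.9) and Cadm3 (105.2 ± 2.69) were highest, followed by Negr1 (83.8 ± 13.7) and Cadm2 (73.1 ± 3.87). Opcml (50.1 ± 3.42) and Ncam1 (49.3 ± 7.31) came next, then Cadm1 (33.4 ± 3.36), Ntm (21.8 ± 2.94) and Ncam2 (15.1 ± 1.9), and Lsamp was lowest at 4.15 ± 1.0. Cadm4 and Cadm3, Negr1 and Cadm2, and Opcml and Ncam1 were pairs of neighbours in this order that differed by less than their spread. The counts cover RefSeq exons and the lengths are of merged GENCODE vM1 exons, so this order depends on the annotation. In Top1 cKO-Topot cultures Cadm3 (113.2 ± 17.3 RPKM) and Cadm4 (101.9 ± 6.4) were still at the top, while Cadm2 was at 7.47 ± 1.65 and Opcml at 7.87 ± 0.369.

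**Figure D2:**
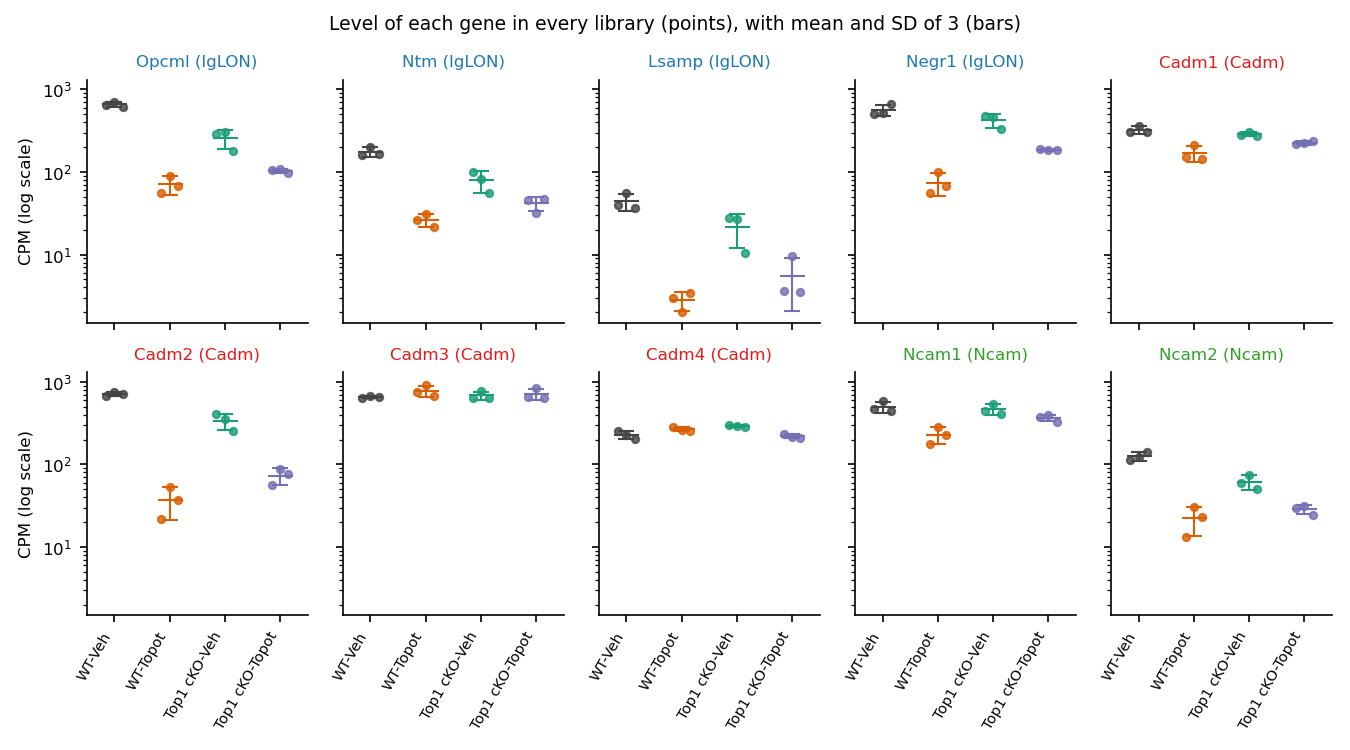
Level of each gene in CPM (log scale) in the 12 libraries, with the 4 groups on the x axis. Points are libraries, and bars the mean and SD of 3. WT-Topot libraries lie below all WT-Veh libraries in 8 of the 10 panels, and Cadm3 and Cadm4 stay between 201.6 and 907.9 CPM in every library.

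All 4 IgLON genes fell with topotecan in WT cells, to between 6.4% and 14.9% of their WT-Veh means. Opcml, the opioid-binding protein of the family, was at 650.1, 705.2 and 616.2 CPM in the 3 WT-Veh libraries and at 55.3, 90.4 and 66.8 CPM in WT-Topot. Its log2 fold change was −3.21 ± 0.202 (SE; edgeR's quasi-likelihood test, Benjamini-Hochberg adjusted p = 1.25e-08). Every WT-Topot library lay far below every WT-Veh library. In RNA from whole cultures, fewer cells that express a gene and less RNA per cell cannot be told apart. Ntm (neurotrimin), which runs toward Opcml from the other side, was at 160.9, 203.4 and 163.6 CPM in WT-Veh and at 26.5, 30.9 and 21.4 CPM in WT-Topot. The Ntm log2 fold change was −2.73 ± 0.212 (adjusted p = 1.02e-07). Lsamp, first described as a marker of the limbic system, was at 39.5, 56.1 and 36.3 CPM in WT-Veh and 3.02, 2.0 and 3.43 CPM in WT-Topot. Its log2 fold change of −3.97 ± 0.342 (adjusted p = 4.31e-07) rested on 7 to 9 counts per library in WT-Topot. Negr1, a neuronal growth regulator, was at 505.9, 515.0 and 669.8 CPM in WT-Veh and 55.3, 100.5 and 67.7 CPM in WT-Topot, a log2 fold change of −2.91 ± 0.221 (adjusted p = 7.9e-08).

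After deletion of Top1 without the drug the IgLON means lay between 39.4% and 75.3% of WT-Veh, and Opcml passed the test. Opcml was at 287.4, 308.0 and 181.9 CPM in Top1 cKO-Veh, which was 39.4% of its WT-Veh mean, with a log2 fold change of −1.34 ± 0.197 (adjusted p = 0.00606). Opcml was the one member of the 10 to pass the test in this comparison, and it did not pass after genes of low counts were filtered out with filterByExpr (adjusted p = 0.023) or without WT-Veh replicate 2 (adjusted p = 0.0293). Ntm was at 100.9, 81.8 and 55.1 CPM (45.0% of WT-Veh; log2 fold change −1.14 ± 0.222, adjusted p = 0.027) and Lsamp at 27.4, 27.0 and 10.5 CPM (49.2%; −0.99 ± 0.318, adjusted p = 0.23). Negr1 stayed nearest to its control level, at 473.6, 466.9 and 333.2 CPM (75.3%; −0.41 ± 0.186, adjusted p = 0.548). In all 4 genes the 3 Top1 cKO-Veh libraries lay below the 3 WT-Veh libraries, and replicate 3 of Top1 cKO-Veh was the lowest of its group.

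With topotecan on top of the deletion Opcml was at 104.8, 107.3 and 97.9 CPM, 39.9% of the Top1 cKO-Veh mean (log2 fold change −1.32 ± 0.195, adjusted p = 0.0154). Negr1 was at 190.4, 183.6 and 183.6 CPM (43.8%; −1.18 ± 0.169, adjusted p = 0.0117), Ntm at 46.2, 32.2 and 46.8 CPM (52.7%; −0.92 ± 0.243, adjusted p = 0.31) and Lsamp at 3.58, 9.63 and 3.5 CPM (25.7%; −1.92 ± 0.439, adjusted p = 0.149). None of the 4 passed the threshold in this comparison, although the groups did not overlap in any of them. Of the 13720 genes that averaged 1 CPM or more, 6.56% were lower without overlap. All 4 had an unadjusted p under 0.05 in edgeR's quasi-likelihood test, and the share of all genes under that limit was not counted. DESeq2's Wald test called Opcml (adjusted p = 2.91e-06) and Negr1 (5.14e-07). Without replicate 3 of Top1 cKO-Veh the quasi-likelihood test called all 4, with Lsamp at a log2 fold change of −2.23 (adjusted p = 6.75e-05) and Ntm at −1.12 (adjusted p = 0.00224).

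Under the drug each IgLON mean was higher in Top1 cKO than in WT cells, and Negr1 passed the test. The mean in Top1 cKO-Topot was 1.98 times that in WT-Topot for Lsamp, 1.59 times for Ntm, 1.46 times for Opcml and 2.5 times for Negr1. The Negr1 log2 fold change was 1.31 ± 0.197 (adjusted p = 1.52e-04), with the lowest Top1 cKO-Topot library at 183.6 CPM and the highest WT-Topot library at 100.5. The other 3 did not (adjusted p = 0.138 for Opcml, 0.142 for Ntm and 0.39 for Lsamp), and in each of them all Top1 cKO-Topot libraries lay above all WT-Topot libraries. How many of all genes did so was not counted, so this cannot be set against all genes.

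In the Cadm family topotecan lowered Cadm2 and, by less, Cadm1 in WT cells, and Cadm3 and Cadm4 did not pass the test. Cadm2, whose product is found on axons and at synapses, was at 680.8, 756.5 and 713.6 CPM in WT-Veh and at 21.8, 53.8 and 36.8 CPM in WT-Topot. This was the largest fall among the members, to 5.23% of the control mean (log2 fold change −4.25 ± 0.255, adjusted p = 1.25e-08). Cadm1, which promotes synapse formation when placed on the surface of cells, was at 305.5, 362.9 and 307.0 CPM in WT-Veh and at 152.1, 214.1 and 145.6 CPM in WT-Topot, 52.5% of the control mean (log2 fold change −0.93 ± 0.188, adjusted p = 0.00433). The Cadm1 call was lost without WT-Veh replicate 2 (adjusted p = 0.0137), WT-Topot replicate 1 (0.0164) or WT-Topot replicate 3 (0.0286). Cadm3, a nectin-like molecule of axons, was at 641.9, 675.4 and 656.6 CPM in WT-Veh and 756.7, 907.9 and 677.5 CPM in WT-Topot (log2 fold change 0.25 ± 0.161, adjusted p = 0.64). Cadm4, known from the contact of axons with myelinating glia, was at 252.8, 228.4 and 201.6 CPM in WT-Veh and 285.2, 262.2 and 253.9 CPM in WT-Topot (0.24 ± 0.171, adjusted p = 0.724). In both Cadm3 and Cadm4 the 3 WT-Topot libraries lay above the 3 WT-Veh libraries by a margin that the test did not call.

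In Top1 cKO-Veh cultures Cadm2 was at 404.0, 351.7 and 256.0 CPM, 47.0% of WT-Veh, and missed the threshold (log2 fold change −1.09 ± 0.184, adjusted p = 0.0118). DESeq2's Wald test (adjusted p = 2.18e-05) and edgeR's exact test (0.00039) called it. Cadm1 was at 88.1% of WT-Veh (−0.18 ± 0.165, adjusted p = 0.981), Cadm3 at 104.0% (0.06 ± 0.156, adjusted p = 1.0) and Cadm4 at 128.4% (0.36 ± 0.168, adjusted p = 0.562). Topotecan in Top1 cKO cells took Cadm2 further down, to 55.8, 87.7 and 76.5 CPM or 21.7% of the Top1 cKO-Veh mean (log2 fold change −2.19 ± 0.21, adjusted p = 3.47e-04). Cadm2 was the one member called there, and it lost the call when genes of low counts were filtered out (adjusted p = 0.0256). Cadm1 (78.8%), Cadm3 (103.5%) and Cadm4 (75.4%) of the Top1 cKO-Veh mean were not called. Cadm4 was the member whose libraries lay on opposite sides of their vehicle control in the 2 genotypes, above it in WT-Topot and below it here, with 302.3, 289.0 and 285.1 CPM in Top1 cKO-Veh against 235.0, 217.9 and 207.6 CPM in Top1 cKO-Topot (log2 fold change −0.4 ± 0.151, adjusted p = 0.902). Between the drug groups Cadm2 was 1.96 times higher in Top1 cKO-Topot than in WT-Topot without passing the test (log2 fold change 0.96 ± 0.256, adjusted p = 0.0259).

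Both Ncam genes fell with topotecan in WT cells, Ncam2 by more than Ncam1. Ncam1 was at 463.4, 584.2 and 449.8 CPM in WT-Veh and 174.9, 285.9 and 230.0 CPM in WT-Topot, 46.1% of control (log2 fold change −1.11 ± 0.194, adjusted p = 0.00107). Ncam2, known from olfactory axons, was at 111.8, 124.5 and 143.4 CPM in WT-Veh and 13.1, 30.3 and 23.1 CPM in WT-Topot, 17.5% of control (−2.5 ± 0.256, adjusted p = 2.82e-06). In Top1 cKO-Veh neither gene passed the test. Ncam1 was at 441.9, 541.1 and 411.4 CPM, overlapping WT-Veh (−0.1 ± 0.175, adjusted p = 1.0). Ncam2 was at 59.8, 74.4 and 50.1 CPM, below all WT-Veh libraries at 48.6% of their mean (−1.03 ± 0.206, adjusted p = 0.0313; DESeq2's Wald test, 8.99e-04). After topotecan on top of the deletion Ncam1 was at 372.8, 395.5 and 330.5 CPM (−0.33 ± 0.158, adjusted p = 1.0) and Ncam2 at 29.5, 31.5 and 24.5 CPM (−1.1 ± 0.226, adjusted p = 0.0905). Ncam1 in Top1 cKO-Topot was 1.59 times its WT-Topot mean (0.67 ± 0.177, adjusted p = 0.0251), and Ncam2 1.29 times with overlapping libraries (0.36 ± 0.281, adjusted p = 0.748).

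**Figure D3:**
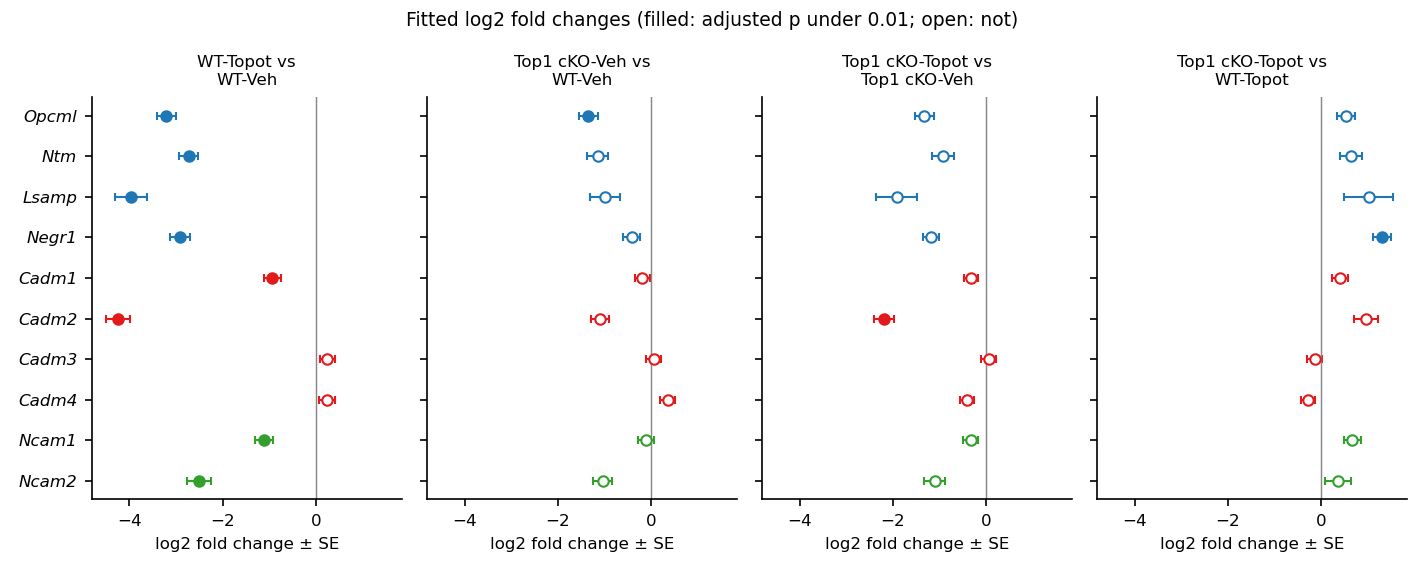
Fitted log2 fold change of each gene (x axis, with its SE as bars) in 4 comparisons, coloured by family. Filled points have an adjusted p under 0.01 in edgeR's quasi-likelihood test and open points do not: 8 members are filled in WT-Topot vs WT-Veh and 1 in each of the other 3 comparisons.

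Across the 3 families 8 of 10 members were called lower in WT-Topot than in WT-Veh, where 2.04% of all 23893 genes were called lower. Since the members were picked with that result known, the share is given as a description. In Top1 cKO-Veh against WT-Veh 1 member of 10 was called lower, beside 0.126% of all genes, and in Top1 cKO-Topot against Top1 cKO-Veh 1 of 10, beside 0.00837%, which is 2 genes in all. In Top1 cKO-Topot against WT-Topot 1 member was called higher, beside 1.46% of all genes. Replicate numbers 1 to 3 paired the libraries, and with the replicate block 8 members were called lower in WT-Topot (5.0% of all genes), 6 after deletion (2.95%) and 8 with topotecan after deletion (1.74%). The 6 were the 4 IgLON genes, Cadm2 and Ncam2, and the 8 added Cadm4 (adjusted p = 0.00153) and Ncam1 (0.0045). The blocked fit also called 5 members higher in Top1 cKO-Topot than in WT-Topot (4.6% of genes), namely Negr1, Cadm2, Ncam1, Opcml (adjusted p = 0.00365) and Cadm1 (0.00996). Counting libraries instead of fits, 8 members lay below WT-Veh in every WT-Topot library, beside 13.2% of the 13720 genes that averaged 1 CPM or more. By the same count 7 lay below it in every Top1 cKO-Veh library (10.3% of genes), and 9 members had all Top1 cKO-Topot libraries below all Top1 cKO-Veh libraries (6.56%).

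The drug alone was also set against the deletion alone, and both together against WT-Veh. These comparisons share libraries with those above, so their values are given side by side. WT-Topot lay below Top1 cKO-Veh in 7 members by the test (1.23% of all genes were called lower), with log2 fold changes from −3.17 ± 0.267 in Cadm2 to −1.02 ± 0.187 in Ncam1. Cadm1 (−0.75 ± 0.175, adjusted p = 0.0217) joined them with the replicate block, which called 8 members beside 4.8% of genes, and Cadm3 and Cadm4 had overlapping libraries. The calls of Ncam1 and Ncam2 in this comparison were lost after the filter on low counts (adjusted p = 0.012 and 0.0149) and without WT-Topot replicate 1 (0.0198 and 0.0142), WT-Topot replicate 3 (0.0155 and 0.0139) or Top1 cKO-Veh replicate 2 (0.0221 and 0.0255). With deletion and drug together, 6 members were lower than in WT-Veh (1.21% of genes), from −3.27 ± 0.201 in Cadm2 to −1.58 ± 0.178 in Negr1, and 8 with the replicate block (4.02%).

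Whether topotecan acted differently once Top1 was deleted was tested by the interaction of drug and genotype over all 12 libraries, in which a positive value means a smaller fall in Top1 cKO cells. It passed in 4 members, beside 0.398% of all genes called higher. The value was 2.05 ± 0.343 in Cadm2 (adjusted p = 0.00369), 1.88 ± 0.28 in Opcml (0.00121), 1.8 ± 0.321 in Ntm (0.00588) and 1.72 ± 0.282 in Negr1 (0.00294). Lsamp had a value as large without passing (2.04 ± 0.604, adjusted p = 0.129), at the lowest counts of the 10 genes. Ncam2 (1.39 ± 0.349, adjusted p = 0.0554), Ncam1 (0.77 ± 0.253, 0.212) and Cadm1 (0.58 ± 0.232, 0.397) were positive and Cadm3 (−0.2 ± 0.216, 1.0) and Cadm4 (−0.64 ± 0.207, 0.2) negative. With the replicate block 7 members were called higher (2.44% of genes) and Cadm4 was called lower (adjusted p = 0.00226; 1.53% of genes). The calls of Ntm and Cadm2 were lost after the filter on low counts (adjusted p = 0.0107 in both), and that of Negr1 without WT-Topot replicate 3 (0.0101). Ntm also lost its call when any of 6 single libraries was left out, with adjusted p up to 0.0183 (without WT-Topot replicate 3).

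Because ratios within a library do not depend on how libraries are scaled, the make-up of each family was described by the share of its summed counts. In the IgLON family the Negr1 share was higher in every library of both Top1 cKO groups than in any library without CRE, and the Opcml share was lower. In WT-Topot the summed IgLON level was 12.1% of WT-Veh (174.4 ± 43.9 against 1440.7 ± 73.0 CPM), with Negr1 at 42.3 ± 2.71% of IgLON counts against 39.1 ± 5.36% and Opcml at 40.6 ± 1.24% against 45.7 ± 3.65%. Ntm was at 15.4 ± 3.05% against 12.2 ± 1.4% and Lsamp at 1.73 ± 0.726% against 3.05 ± 0.685%. In Top1 cKO-Veh the sum was 54.5% of WT-Veh, with Negr1 at 54.5 ± 2.51% and Opcml at 32.8 ± 1.82% of counts. In Top1 cKO-Topot the sum was 23.4% of WT-Veh, with Negr1 at 55.2 ± 0.0826% and Opcml at 30.7 ± 1.39% of counts. The Negr1 share ran from 52.8 to 57.4% in the 6 CRE libraries and from 34.8 to 45.1% in the other 6, and the Opcml share from 29.5 to 34.9% and from 39.5 to 47.9%. Ntm was at 9.25 to 11.3% in Top1 cKO-Veh and at 9.68 to 14.1% in Top1 cKO-Topot, and Lsamp at 1.81 to 3.08% and 1.04 to 2.89%, so the shares of both overlapped those without CRE. No test of the shares was run.

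In the Cadm family the largest share of counts lay with Cadm2 in WT-Veh and with Cadm3 in the other 3 groups. Cadm2 held 37.2 ± 0.911% of Cadm counts in WT-Veh and 2.95 ± 1.02% in WT-Topot, and it held 21.0 ± 3.63% after deletion and 5.95 ± 1.01% after deletion and drug. Cadm3 held 34.2 ± 0.782%, 62.1 ± 1.17%, 42.8 ± 3.1% and 57.5 ± 3.28% in the same order. The summed Cadm level was nonetheless 65.2% of WT-Veh in WT-Topot and 63.7% in Top1 cKO-Topot, most of it from Cadm3 and Cadm4. The order by counts depends on exon length, and the order per kilobase on the annotation that gives the lengths. Per kilobase of exon Cadm3 and Cadm4 were level with each other in WT-Veh, at 33.2 ± 1.36% and 33.2 ± 2.96% of the family, above Cadm2 at 23.1 ± 1.25%. By that measure Cadm4 was above Cadm3 in Top1 cKO-Veh (43.9 ± 2.35% and 35.4 ± 2.69%). The Cadm3 and Cadm4 shares were 46.1 ± 2.83% and 46.0 ± 4.13% in WT-Topot and 45.9 ± 3.63% and 41.6 ± 3.53% in Top1 cKO-Topot. In the Ncam family Ncam2 went from 20.4 ± 3.41% of counts in WT-Veh to 8.56 ± 1.41% with topotecan, 11.6 ± 0.669% after deletion and 7.2 ± 0.268% after both.

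**Figure D4:**
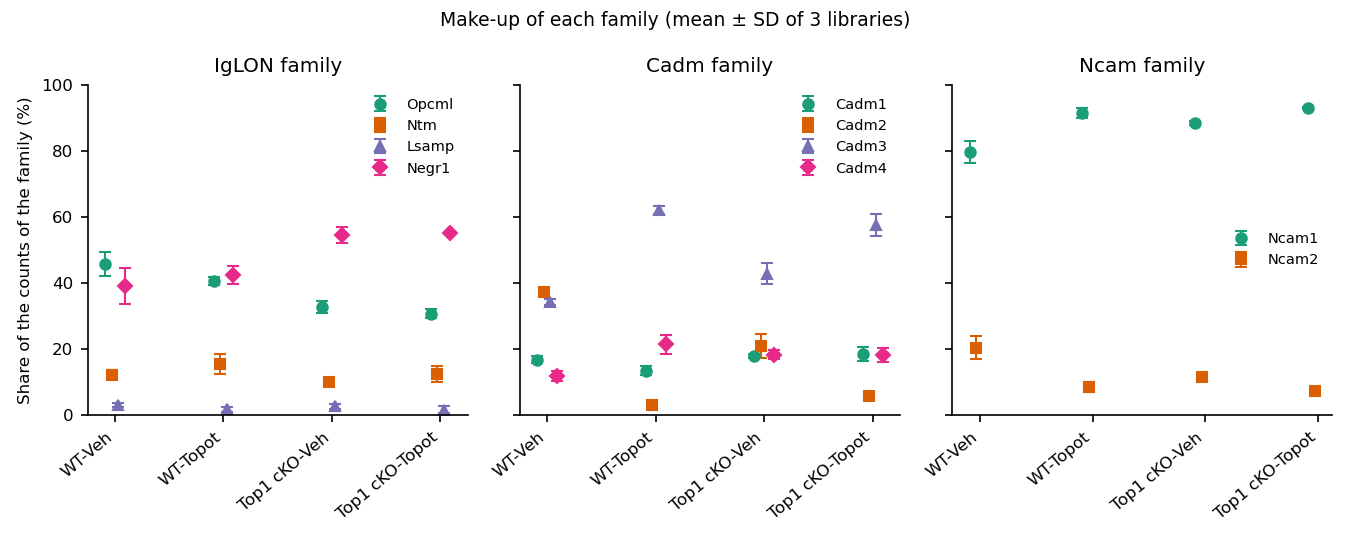
Share of each gene in the summed counts of its family (y axis, percent; mean ± SD of 3 libraries) in the 4 groups. Negr1 holds 54.5% and 55.2% of IgLON counts in the Top1 cKO groups against 39.1% in WT-Veh and 42.3% in WT-Topot, and Cadm2 goes from 37.2% of Cadm counts in WT-Veh to 2.95% in WT-Topot.

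The members' differences ran with the span of the gene. In WT-Topot against WT-Veh Spearman's rho between span and log2 fold change over the 10 genes was −0.82, after deletion −0.95 and with topotecan after deletion −0.72. These are given as descriptions, since the points come from the same libraries and the comparisons share groups. The spans are those of GENCODE vM1. By the RefSeq starts described above Ntm would be shorter and Lsamp could be longer. The rho values and the place of Ntm among genes over 500 kb therefore depend on the annotation. For comparison, the 179 genes over 500 kb that averaged 1 CPM or more had a median log2 fold change of −2.11 (quartiles −2.77 and −1.25) in WT-Topot, and the 5 members of that span, Opcml, Ntm, Cadm2, Negr1 and Lsamp, ran from −4.25 to −2.73. Of these 5, Ntm lay inside the quartiles and the other 4 below the lower one, and Cadm2 and Lsamp also lay below the tenth percentile of −3.38. In Top1 cKO-Veh the median of genes over 500 kb was −0.56 (quartiles −0.93 and −0.13), and Negr1 at −0.41 lay between the quartiles while Opcml at −1.34 lay below the tenth percentile of −1.25. With topotecan after deletion the median was −0.68 and the tenth percentile −1.6, which Cadm2 and Lsamp passed. The 3 members of 100 to 500 kb, Ncam2, Cadm1 and Ncam1, had −2.5, −0.93 and −1.11 in WT-Topot, where 1838 genes of that span had a median of −0.37 and a lower quartile of −0.85. Cadm3 and Cadm4, at 0.25 and 0.24, lay between the quartiles of −0.21 and 0.37 of the 11322 shorter genes with a span up to 100 kb. Over the 2017 genes longer than 100 kb, 17.8% were called lower in WT-Topot, 0.545% after deletion and 0.0992% with topotecan after deletion, and all 8 members over 100 kb were among those called in the first.

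**Figure D5:**
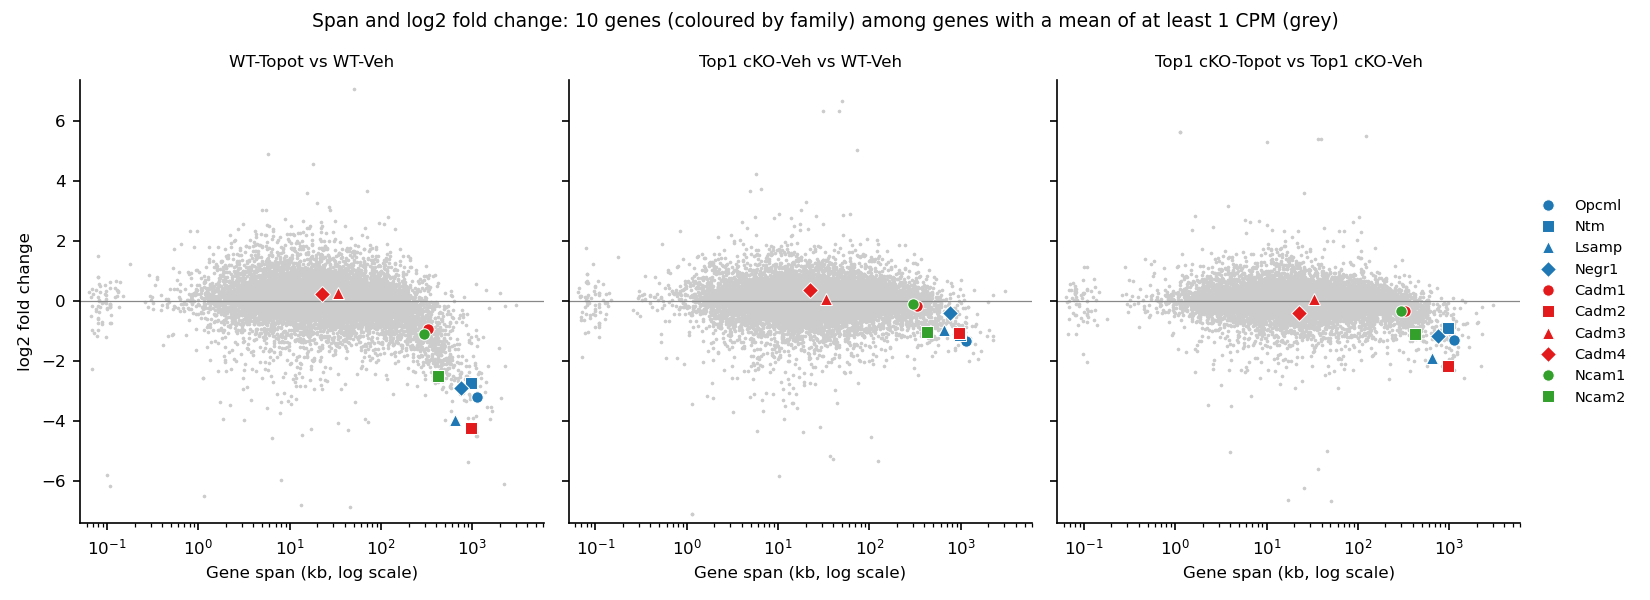
Gene span in kb (x axis, log scale) and log2 fold change (y axis) of the genes that have a span and averaged 1 CPM or more (grey) and of the 10 members (symbols coloured by family) in 3 comparisons. The members over 500 kb lie between −4.25 and −2.73 in WT-Topot vs WT-Veh, while Cadm3 and Cadm4 lie at 0.25 and 0.24.

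Of the genes outside the 10 that lie beside or overlap the members, 4930570G19Rik was called higher in WT-Topot, and no other was called without the replicate block. With the block Gap43 and Gm11149 were called lower as well. At the start of Negr1 the minus-strand gene 4930570G19Rik (chr3:156209717-156224710) begins 47 bases before the plus-strand start of Negr1, so that the promoter window shown for Negr1 reaches both starts. The levels of 4930570G19Rik were 4.68, 2.63 and 6.34 CPM in WT-Veh and 15.8, 12.9 and 18.8 CPM in WT-Topot. This gene rose with topotecan while Negr1 fell (log2 fold change 1.81 ± 0.385, adjusted p = 0.00595), on 6 to 47 counts per library, and the call was lost in 3 of 12 alternatives, with the highest adjusted p of 0.0263 without WT-Veh replicate 2. In Top1 cKO-Veh the 3 libraries were at 10.6, 12.8 and 19.0 CPM, above all WT-Veh libraries without passing the test (1.64 ± 0.413, adjusted p = 0.0917; 6.02e-05 with the replicate block). Gap43, a growth cone protein gene 66.8 kb from the end of Lsamp, was at 812.2, 948.5 and 1068.9 CPM in WT-Veh and 632.7, 680.1 and 835.1 CPM in WT-Topot (−0.39 ± 0.17, adjusted p = 0.298; 0.00166 with the replicate block), lower with the drug in each of the 3 replicate numbers. Zranb2, 217.7 kb beyond Negr1 (0.32, adjusted p = 0.647), and Snx19, 464.0 kb from Ntm (0.11, adjusted p = 1.0), were not called. Zfp428, 2.5 kb beyond Cadm4 on the same strand, was at 30.1, 23.2 and 28.8 CPM in WT-Veh and 45.2, 41.8 and 36.8 CPM in WT-Topot, higher in every library without passing the test (0.6 ± 0.229, adjusted p = 0.2; 0.0281 with the block). Darc, 0.8 kb beyond the end of Cadm3 (0.45 ± 0.233, adjusted p = 0.454), Igsf11, 2505.7 kb from Lsamp (−0.28, adjusted p = 0.846), and Aim2, which overlaps Cadm3 on the other strand with 9 counts at most per library (1.88, adjusted p = 0.307), were not called. The remaining nearest genes averaged 5.47 CPM at most and were not called. Gm11149 lies inside Ncam1 on the other strand, shares 254 exonic bases with it and had a log2 fold change of −1.21 ± 0.35 (adjusted p = 0.054; 1.56e-04 with the replicate block). Whether the counting used strand is not given in the sources used here, so reads on those bases cannot be told apart from Ncam1, and the same holds for 256 exonic bases of Cadm2 that an antisense transcript covers.

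Over the 12 libraries the gene outside the 10 whose log2(CPM + 1) followed a member most closely was itself longer than 100 kb for 7 of the 8 members that fell. In a search of the 9507 genes that averaged 10 CPM or more, Cadm2 was most like Syt1 (Pearson's r = 0.992), Negr1 most like Erc2 (0.99), Cadm1 like Unc5c (0.989), Opcml like Csmd1 (0.988), Ncam2 like Tenm1 (0.988), Ncam1 like Fbxl17 (0.987), Ntm like Kcnq5 (0.977) and Lsamp like Mdga2 (0.971). Ntm was yet more like Opcml (0.979), its neighbour and fellow member, and the other 9 were less like any member than like the gene named. The spans of these genes ran from 369.4 kb (Unc5c) to 1643.0 kb (Csmd1), and Tenm1 had none in the annotation. Cadm3 was most like Cds2 (0.914) and Cadm4 like Txnl4b (0.882), and the 2 genes were hardly like each other (0.122). The 12 points are 4 groups of 3 libraries, and all genes share the libraries and their depth.

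Other adhesion genes of the immunoglobulin superfamily, 37 in a list that leaves out the 10 and holds 1 more IgLON gene, Iglon5, moved both ways. In WT-Topot 8 were called lower (2.04% of all genes) and 2 higher (0.682%). The median log2 fold change of the 36 that averaged 1 CPM or more was −0.31, beside 0.03 over all such genes. With the replicate block 10 were called lower (5.0% of all genes) and 6 higher (3.24%). Dscam, a homophilic adhesion gene of 578.7 kb, went from 98.9 ± 41.2 CPM in WT-Veh to 7.62 ± 2.63 in WT-Topot (log2 fold change −3.66 ± 0.318, adjusted p = 5.16e-07). Cntn4 (−2.77 ± 0.517, adjusted p = 0.00181) and Cntn5 (−2.56 ± 0.583, adjusted p = 0.00975), contactins that are lipid-anchored like the IgLONs, fell at low levels. Kirrel3, a homophilic adhesion gene of 550.6 kb, fell from 52.4 ± 12.7 to 13.8 ± 4.94 CPM (−1.89 ± 0.286, adjusted p = 2.34e-04). Mdga2 fell (−2.39 ± 0.226, adjusted p = 1.3e-06) and its paralogue Mdga1 rose (2.4 ± 0.347, adjusted p = 1.48e-04), from 39.3 ± 31.3 to 207.2 ± 33.9 CPM. Both encode lipid-anchored proteins that bind neuroligins, and their spans are 751.0 and 142.1 kb. Iglon5, the fifth gene of the IgLON family and the shortest of it at 17.2 kb, was chosen for mention after its values were seen and was not called (−0.37 ± 0.206, adjusted p = 0.505). None of the 37 was called in Top1 cKO-Veh by edgeR's quasi-likelihood test, in which 12 had an unadjusted p under 0.05 and the median was 0.18. The share of all genes under that limit was not counted, so the 12 cannot be set against it. With the replicate block 7 of the 37 were called lower there (2.95% of all genes) and 4 higher (2.6%).

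Of 23 genes whose products act with these adhesion proteins, 4 were called lower in WT-Topot (2.04% of all genes) and none higher, with a median log2 fold change of −0.28 over the 22 that averaged 1 CPM or more. With the replicate block 9 were called lower (5.0% of genes) and none higher. The 4 were scaffold and signalling genes. Apba1, the MINT adaptor that joins CASK, went from 614.7 ± 81.7 to 227.9 ± 37.3 CPM (−1.43 ± 0.182, adjusted p = 3.56e-05), and Cask, the scaffold that binds CADM tails, from 144.4 ± 15.2 to 55.9 ± 20.7 CPM (−1.36 ± 0.234, adjusted p = 9.2e-04). Farp1, which signals below CADM1 in dendrites, fell from 64.1 ± 26.9 to 26.7 ± 4.17 (−1.27 ± 0.266, adjusted p = 0.00565), and Fyn, the kinase that NCAM1 engages, from 178.5 ± 17.0 to 95.7 ± 23.9 (−0.89 ± 0.2, adjusted p = 0.00975). The polysialyltransferase genes St8sia2 (−0.18 ± 0.256, adjusted p = 1.0) and St8sia4 (0.15 ± 0.353, adjusted p = 1.0), which make the sugar chain of NCAM1, were not called in WT-Topot. Epb4.1l1, Epb4.1l2 and Epb4.1l3, band 4.1 genes that link adhesion proteins to the cytoskeleton, were not called either (−0.05, −0.46 and −0.52), although Epb4.1l3 was with the replicate block (adjusted p = 0.00294). These 5 genes were chosen for mention after their values were seen. None of the 23 was called in Top1 cKO-Veh by the quasi-likelihood test, with 3 at an unadjusted p under 0.05 and a median of 0.08. The share of all genes under that limit was not counted. With the replicate block 2 of the 23 were called lower there (2.95% of all genes). They were St8sia2 (log2 fold change −1.15, adjusted p = 4.94e-07) and Apba1 (−0.5, adjusted p = 4.8e-05).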

How the data were processed

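The libraries were sequenced by the authors as paired-end reads, which they aligned to the mm9 assembly with TopHat. Whether libraries with the same replicate number shared a culture preparation is not given in the sources used here. The authors deposited raw counts over RefSeq exons per gene symbol, without normalization. The counting program, its use of strand and the software versions are not given in the sources used here. The labels gave each library its group and replicate number, and all columns of the table were used.

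Counts were scaled by TMM, and each comparison used the 6 libraries of its pair of groups in glmQLFit and glmQLFTest of edgeR 4.0.16 (R 4.3.3), without a filter, with Benjamini-Hochberg adjustment over all 23893 genes and a threshold of 0.01. The interaction was fitted on 12 libraries. CPM values use TMM-scaled library sizes, and RPKM divides them by merged GENCODE vM1 exons. Of the symbols, 21013 matched that annotation directly, 1056 through a synonym, and 1824 did not match. CPM is given per library or as mean ± SD of 3, and log2 fold changes carry an SE computed from the coefficient and the F statistic. At 1730164 to 4583777 counts per library, counting error limits genes such as Lsamp. The p-values rest on the spread between these libraries, shared in part across genes. In comparisons of 2 groups the main fit had 4 residual degrees of freedom per gene and took 11.7 to 20.5 from all genes.

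Deviations from group means over 13720 genes correlated at 0.261 to 0.485 in the 18 pairs of libraries with the same replicate number and at −0.384 to −0.0494 in the 36 other pairs, so the numbers were taken to pair the libraries, although no source says what a number stands for. The main fit took no account of this pairing. The paired fit used the number as a replicate block. In comparisons of 2 groups it left 2 residual degrees of freedom per gene and took from 36.2 to an unlimited number from all genes, so its p-values rest almost wholly on spread shared across genes. No library repeated another of its group (dispersion index of their counts 6.05 to 10.1).

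Alternatives were RLE size factors, filterByExpr, the replicate block, DESeq2 1.42.0, edgeR's exact test, a fit on all 12 libraries and leaving out each library. The quasi-likelihood fit without a block was tested on simulated data first, for topotecan in WT and in Top1 cKO cells. Unfiltered, it recovered the large changes but called more unchanged genes than a false discovery rate of 0.01 allows. In the simulated data its adjusted p-values were therefore on the lenient side. The simulated counts held no effect of the replicate number, whereas the numbers were taken to pair the real libraries and this fit ignored that. The simulation thus cannot show whether the adjusted p-values and shares of genes called here are lenient. The replicate block and the interaction were not tested this way. The members, context lists and marker lists were chosen with earlier results of these data known. Named genes were all members, Top1, overlapping and nearest genes (those averaging under 10 CPM as a group, other than 1 overlapping gene), the gene outside the members with the most similar profile, and from each context list the called genes with the largest fold changes (at most 6).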

Additional observations from a re-analysis of the deposited data

Results flagged for a closer look

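The response to topotecan differed between WT and Top1 cKO cells in 4 members by the interaction test over 12 libraries (edgeR's quasi-likelihood test, adjusted p from 0.00121 to 0.00588). The difference of the log2 fold changes was 2.05 in Cadm2, 1.88 in Opcml, 1.8 in Ntm and 1.72 in Negr1, and in each the fall was larger in WT cells. The WT-Veh libraries enter only the effect in WT cells, and Top1 cKO-Veh already lay below WT-Veh in every library of these 4 genes. Compared as levels under the drug, Top1 cKO-Topot lay above WT-Topot in every library of the 4, from 1.46 times the mean in Opcml to 2.5 times in Negr1. The share of all genes with libraries apart in this way was not counted. Summed astrocyte markers were 618.0 to 1298.2 CPM in WT-Topot and 624.3 to 1719.9 CPM in Top1 cKO-Topot. Summed neuron markers were 3203.7 to 3890.6 CPM and 4110.2 to 5274.7 CPM in the same groups, and interneuron markers 520.8 to 823.1 and 831.7 to 1265.6 CPM. Summed markers of excitatory projection neurons went the other way, at 1787.5 to 2105.8 CPM in WT-Topot and 1238.5 to 1286.2 CPM in Top1 cKO-Topot. The part of any of these in the difference was not tested.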

How the results depend on the processing

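Of 176 recomputed counts of members called, 152 stayed within 1.5 times of the value given above, 19 were higher and 5 lower. The member count in WT-Topot vs WT-Veh kept within that margin under each alternative run. In Top1 cKO-Veh vs WT-Veh it was 0 after filterByExpr, 6 with the replicate block and 4 with DESeq2 or edgeR's exact test, and 0 to 3 with a library left out. Against Top1 cKO-Veh, Top1 cKO-Topot gave 0 after filterByExpr, 8 with the replicate block, 4 with DESeq2 or the exact test, 2 in the fit on all 12 libraries, and 1 to 6 with a library left out, the 6 without Top1 cKO-Veh replicate 3. Members higher in Top1 cKO-Topot vs WT-Topot were 5 with the replicate block, 2 with DESeq2 and 1 to 3 with a library left out. Interactions called higher were 2 after filterByExpr, 7 with the replicate block and 2 to 4 with a library left out, and 1 was called lower with the block. Shares of all genes called are given above for the replicate block. For the other alternatives they are not given, so those member counts cannot be set against all genes. Among the recomputed log2 fold changes of members 6 changed sign, all of members that were not called and with a library left out. The ranges were −0.04 to 0.1 for Cadm3 and −0.23 to 0.03 for Ncam1 in Top1 cKO-Veh vs WT-Veh, −0.07 to 0.15 for Cadm3 in Top1 cKO-Topot vs Top1 cKO-Veh, and −0.03 to 0.2 for Cadm3 and −0.11 to 0.05 for Cadm4 in Top1 cKO-Topot vs WT-Veh. The cause of these changes was not tested. Lsamp was left out by filterByExpr in Top1 cKO-Topot vs WT-Topot, and DESeq2 gave it no adjusted p in Top1 cKO-Topot vs Top1 cKO-Veh. Family shares by reads per kilobase in place of counts differed by more than 1 SD in 31 cases, through exon length alone.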
